A study of Homo sapiens with 12 samples.

Results

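The 6 libraries described here are the solvent controls of a series of 12 RNA-sequencing libraries of human multiple myeloma cell lines. They comprise 3 libraries of U266 and 3 of MM.1S, and every culture behind them received DMSO for 6 h. Membership was set by the labels alone, and the comparison asks how the 2 lines differ before any drug is added. The other 6 libraries hold the same lines after 6 h with 6 µM IT848, an NF-kB inhibitor per the series text, and enter only where stated. Both lines grew in RPMI medium with serum, and no transgene or deletion made by the study is named for either. Each line stems from the tumour of 1 person, so inherited variants, tumour lesions and long culture all differ between the groups and cannot be told apart. Whether the 3 libraries of a line came from separate cultures is not stated, so each p-value measures the spread between these libraries, which may be technical.

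Multiple myeloma is a cancer of plasma cells, the antibody-secreting end stage of the B cell lineage. It often begins when a translocation into the immunoglobulin heavy chain locus switches on an oncogene. The oncogene can be a D cyclin, which drives cells past the G1 block that RB1 sets, or MAF, a basic leucine zipper factor that activates CCND2, integrin genes and other targets. U266 is known for CCND1 under a heavy chain enhancer, for making its own IL6 and for using MYCL. MM.1S is known for a translocation that activates MAF and for dying when exposed to glucocorticoids.

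Depth was 50627690 to 71170495 transcript counts in the 6 libraries, or 22887471 to 32181618 when the most counted transcript alone stands for each gene, and 18364 to 19511 gene symbols had a count. A count of 3 corresponded to 0.0423 to 0.0596 counts per 1000000 (CPM), the floor below which a level was not read as expression. Levels are CPM summed over all transcripts of a symbol after scaling by trimmed means (TMM). They compare libraries for 1 gene, whereas levels of different genes are compared only per length, as FPKM of the most counted transcript. MM.1S library 2 stood apart in one respect: 12 genes at 100 CPM or more in U266 stood there at 0.338% of their U266 level, against 0.0302% and 0.0453% in libraries 1 and 3. In the U266 libraries, 5 genes high in MM.1S stood at 0.0246% to 0.0387%. The source of these reads was not tested. For genes near 0 in MM.1S whose log2 difference moved by over 0.5 without library 2, both values are given below, unless 3 counts or fewer were left. Libraries of MM.1S also differed by transcript length: across 9125 genes, the deviation from the mean of the line correlated with length at 0.447 (Spearman) in library 1 and −0.459 in library 3, against −0.197 to 0.116 in the other 4. The part of either feature in the results was not tested beyond the fits of the closing section. Of the markers of other cells, 10 of 17 for T and NK cells, 5 of 12 for myeloid and 9 of 11 for stromal and endothelial passed the low-count filter. So did 3 of 9 for epithelial and 2 of 8 for red cells and platelets, against 16185 of all 25680 symbols. Of those that passed, 2, 5, 5, 2 and 1, in that order, were called at least 2-fold different between the lines, against 42.1% of all genes tested.

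The plasma cell labels were checked first. SDC1, the CD138 antigen of plasma cells, was present in both lines, at 1071 ± 43.4 CPM in U266 and 656 ± 8.90 CPM in MM.1S (mean ± SD, n = 3 libraries, as in all such pairs below). IRF4, a factor that myeloma cells depend on, stood at 588 ± 18.9 and 1281 ± 56.7 CPM. PRDM1, XBP1, TNFRSF17, SLAMF7, POU2AF1 and IKZF3 were likewise well above the floor in all 6 libraries. Low in U266 were CD38, given below, and MZB1, an endoplasmic reticulum cofactor of antibody assembly, which stood at 7.71, 7.81 and 8.08 CPM in U266 and 239, 247 and 258 CPM in MM.1S. The line labels were checked next. IL6 was at 4.37, 4.27 and 4.39 CPM in U266 and 0.113, 0.0993 and 0.106 CPM in MM.1S. Every U266 library thus carried IL6 well above the floor, whereas the MM.1S libraries lay close to it. CCND1 and MAF, given below, also matched their lines.

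Most genes differed between the lines. Of 16185 genes tested by edgeR's quasi-likelihood test with Benjamini-Hochberg adjustment at 0.05, 13687 passed (84.6%): 6728 (41.6%) were higher in MM.1S and 6959 (43.0%) lower. The 6 libraries split without overlap for 85.7% of genes. Since most genes passed, gene groups are described by calls of at least 2-fold, which 6810 genes reached (42.1%): 3281 higher in MM.1S (20.3%) and 3529 lower (21.8%). These 20.3% and 21.8% are the background against which each group below is to be read. The median log2 difference, MM.1S minus U266, was −0.01, the median size regardless of sign was 0.80, and 1896 genes passed 16-fold, 891 of them higher and 1005 lower. In the IT848 libraries, which share no sample with the solvent libraries but carry the drug as well, 5823 of the 6810 genes (85.5%) again passed 2-fold in the same direction, and 5 passed 2-fold the other way. Of the 6810 genes, 6627 were tested there, and the others counted as not shared. The 5823 are 87.1% of the 6683 genes that passed 2-fold there. U266 library 1 with IT848 carried the MM.1S-high genes at 0.921% of their MM.1S level, and without it the share was 86.2%.

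**Figure D1:**
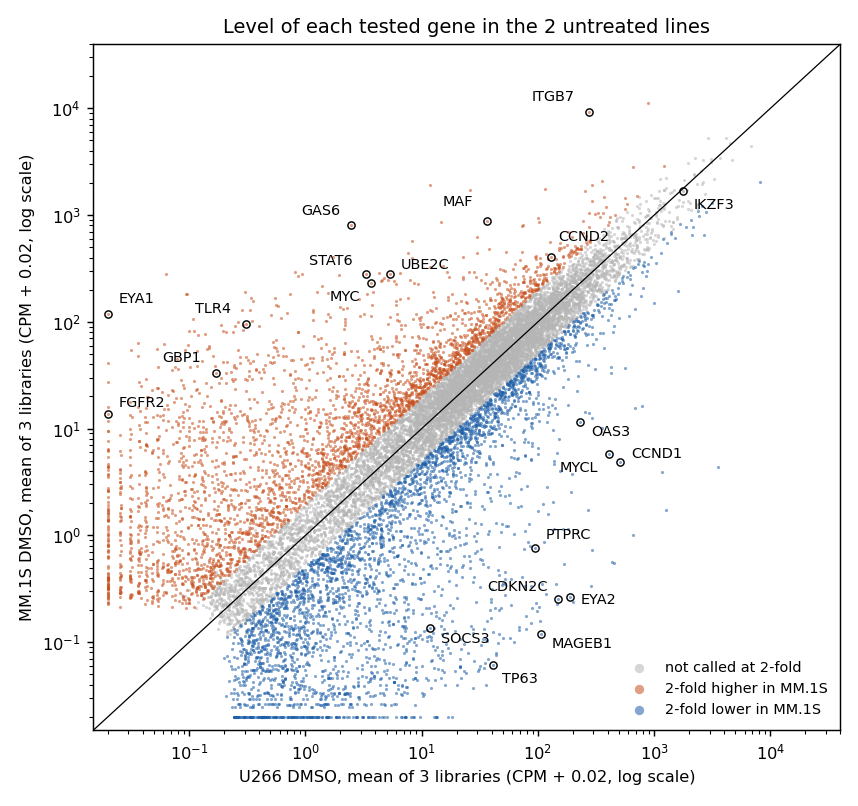
Mean level of each gene in the 3 U266 libraries (horizontal) and the 3 MM.1S libraries (vertical), in CPM plus 0.02 on log axes, with 2-fold calls in colour and genes named in the text labelled. MYC, MAF and ITGB7 lie far above the diagonal and CCND1, MYCL and CDKN2C far below it, while IKZF3 lies next to it.

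MAF and most genes described as its targets were higher in MM.1S. MAF stood at 36.8, 35.8 and 37.7 CPM in U266 and 945, 875 and 840.5 CPM in MM.1S. The groups lay far apart, and the 3 libraries of each line were close together. The difference was 4.59 ± 0.05 on the log2 scale (± SE; edgeR adjusted p = 6.6e-16). NRL, a related large MAF factor, went the other way, from 1.25 to 0.369 CPM. Of the 24 genes tested in the MAF list, 16 were at least 2-fold higher in MM.1S and 2 lower, with a median of 2.59 against −0.01 over all genes. The list was drawn up from genes described for MAF-translocated myeloma, a class to which MM.1S itself belongs.

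ITGB7, the integrin chain that holds myeloma cells to stroma, stood at 285, 263 and 284 CPM in U266 and 9297, 9313 and 9194 CPM in MM.1S, a difference of 5.06 ± 0.04, and per length it reached 1705 FPKM in MM.1S. CD9, a tetraspanin, stood at 0.200, 0.165 and 0.369 CPM in U266 and 96.2, 97.3 and 105 CPM in MM.1S, so that U266 lay near the floor and MM.1S far above it. The kinase NUAK1 (8.39), the endotoxin receptor TLR4 (8.37), the chemokine receptors CX3CR1 (5.46) and CCR1 (3.47) and the scaffold IQGAP2 (4.78) followed in the same direction. CCND2 was higher by 1.63 ± 0.04. The 2 lower by 2-fold were NCOA7, a nuclear receptor coactivator at 289 ± 17.4 CPM in U266 and 77.5 ± 4.98 CPM in MM.1S, and NRL. The MAF half-site letters TGCTGA, sought on both strands of the 250 bases before the start in RefSeq promoters (GRCh38.p14), occurred in 14.1% of all promoters, in 5 of 21 MAF-list promoters and in 1 of the 13 belonging to genes 2-fold higher. That 1 was MAF itself.

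The lines drew on different members of the same cell cycle families. CCND1, the cyclin D1 that pairs with CDK4 and CDK6 to inactivate RB1, stood at 511, 505 and 507 CPM in U266 and 4.53, 6.23 and 3.82 CPM in MM.1S. U266 was higher in every library, with a difference of −6.72 ± 0.12 (edgeR adjusted p = 2.8e-11). CCND2 was higher in MM.1S at 131 ± 3.66 against 405 ± 19.5 CPM, and so was CCND3 at 35.7 ± 1.79 against 116 ± 2.53 CPM. Per length, CCND1 in U266 reached 119 FPKM, and in MM.1S CCND2 reached 61.6 and CCND3 8.07 FPKM. U266 was thus not without CCND2, which it carried at 20.2 FPKM. CDK6 was higher in MM.1S (2.51 ± 0.04), whereas CDK4 differed by −0.23 only.

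CDK inhibitors of the INK4 class, which block CDK4 and CDK6, were all lower in MM.1S, CDKN2D by −0.84 and the others by more. CDKN2C, lost in a share of myelomas, stood at 151, 148 and 151 CPM in U266 and 0.0423, 0.437 and 0.229 CPM in MM.1S, so all MM.1S libraries were under 0.5 CPM. The difference was −9.44 with all libraries and −10.19 without MM.1S library 2. CDKN2B stood at 38.4, 35.5 and 37.9 CPM in U266 and 0.480, 0.576 and 0.387 CPM in MM.1S, and CDKN2A at 88.0 ± 2.30 and 11.2 ± 0.401 CPM. The groups did not overlap for either gene, with CDKN2A still well above the floor in MM.1S. The noncoding neighbour CDKN2B-AS1, whose reads may not be separable from theirs without strand, was lower as well (−4.10). CDKN1A and CDKN1B, which bind CDK2 complexes, were higher in MM.1S by 1.10 and 1.66, and RB1, the substrate of the D cyclin kinases, by 2.5 ± 0.06. Of the 23 cyclin, CDK and RB genes tested, 7 were 2-fold higher and 5 lower. E2F1, E2F2, E2F3 and E2F4 differed by at most 0.33 in either direction.

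MYC and MYCL, both drivers of cell growth that bind DNA with MAX, were exchanged. MYC stood at 3.75, 3.43 and 3.67 CPM in U266 and 234, 228 and 230.2 CPM in MM.1S, and MYCL stood at 413, 399.8 and 420.0 CPM in U266 and 5.51, 5.56 and 6.12 CPM in MM.1S. The 2 genes were high in opposite lines in every library, with differences of 6.00 ± 0.05 and −6.16 ± 0.06 (edgeR adjusted p = 1.9e-16 and 1.8e-16). Per length, MYCL in U266 reached 48.0 FPKM and MYC in MM.1S 96.6 FPKM. MAX and the antagonists MXI1 and MXD1 differed by 0.20, 0.30 and −0.61, and MNT was higher in MM.1S (1.05). PVT1, the noncoding neighbour of MYC, was higher in MM.1S too, at 1.76 ± 0.197 CPM in U266 and 6.82 ± 0.246 CPM in MM.1S. Ribosome biogenesis genes, a class that MYC proteins are known to drive, were close to level: 6 of 40 were 2-fold higher, 0 lower, and the median was 0.10.

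EYA1 and EYA2, phosphatases and transcriptional cofactors of development, showed the same exchange. EYA1 had no count in any U266 library and stood at 116, 118 and 124 CPM in MM.1S. With U266 set to the floor of 3 counts per library, that is 2356-fold higher. Sums per symbol repeat reads, so this value and the like ones below are not strict lower bounds. EYA2 stood at 201, 177 and 190.1 CPM in U266 and 0, 0.635 and 0.106 CPM in MM.1S, which is −9.77 with all libraries and −11.91 without library 2. These pairs, with those of STAT, CDK, receptor and B cell genes described next, are drawn by library in the plot of opposite pairs. The pairs were picked for their opposite levels and are examples only.

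**Figure D2:**
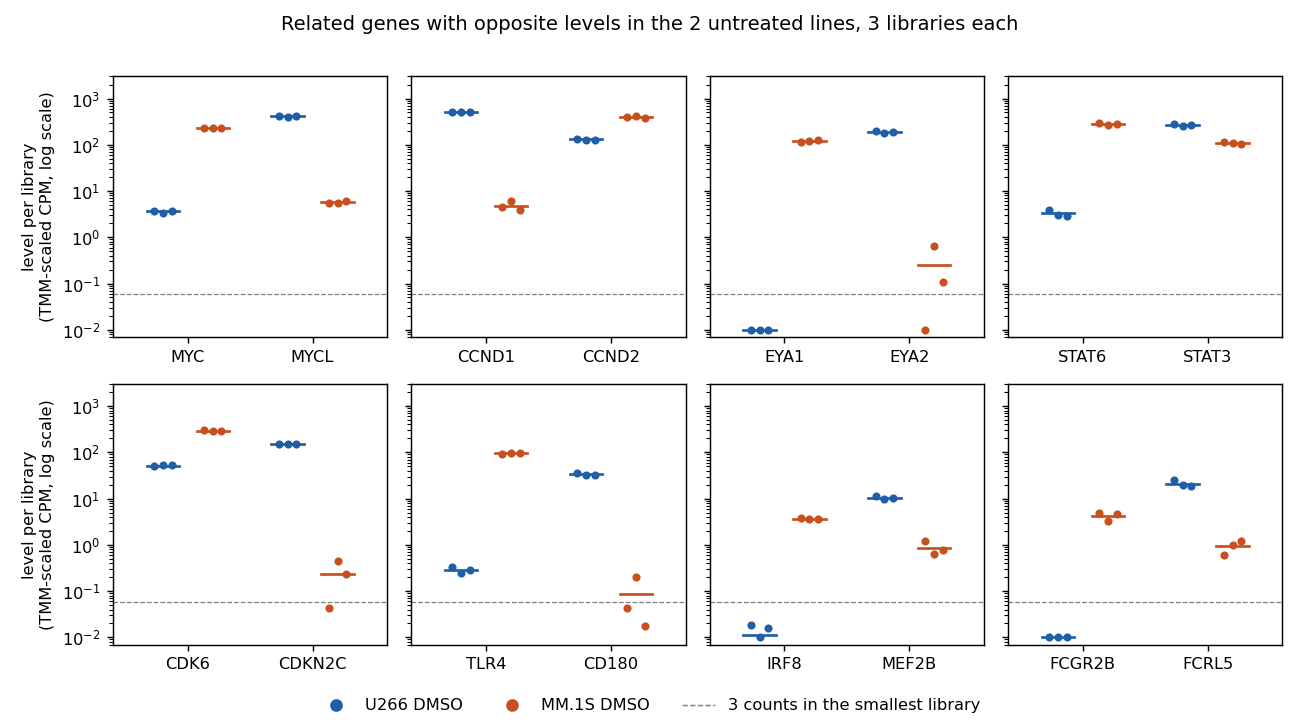
Level of 16 genes, in 8 pairs, in each of the 6 libraries (CPM, log axis; values under 0.01 are drawn at 0.01), with the dashed line at 3 counts in the smallest library (0.0596 CPM). The pairs were picked so that the first gene is higher in one line and the second in the other. The raised points of CDKN2C, CD180 and EYA2 in MM.1S are those of library 2.

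Factors of the plasma cell state were on in both lines but often at different levels, and several B cell factors were far higher in MM.1S. Of 16 plasma cell factors tested, 6 were 2-fold higher and 3 lower. IKZF3, the lymphoid factor that cereblon drugs degrade, did not pass the test (1761 and 1676 CPM), nor did MEF2A or KLF2. PRDM1, the repressor that ends the B cell programme, was higher in MM.1S by 1.44 ± 0.04, IRF4 by 1.12, IKZF1 by 1.02 and XBP1, the factor of secretory expansion, by 0.63. MEF2C stood at 294, 292 and 285 CPM in U266 and 1917, 1900.0 and 1936 CPM in MM.1S, the largest difference in that direction in the plasma cell factor group, and its relative MEF2B went the other way (−3.54).

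Of 13 B cell factors tested, 6 were 2-fold higher and 3 lower. IRF8 stood at 0.0182, 0 and 0.0160 CPM in U266 and 3.79, 3.57 and 3.59 CPM in MM.1S, and BCL11A stood at 0.0546, 0.0494 and 0.0321 CPM in U266 and 15.2, 15.3 and 15.3 CPM in MM.1S. SPI1, the factor PU.1 of B and myeloid cells, stood at 0.218, 0.132 and 0.256 CPM in U266 and 16.9, 15.4 and 17.7 CPM in MM.1S. For these genes U266 lay below 0.4 CPM throughout and MM.1S clearly above the floor. ETS1 was higher in MM.1S as well (2.47). BCL6, the factor of germinal centre cells, ID3 and SPIB were higher in U266, by −2.06, −2.51 and −1.86 on the MM.1S minus U266 scale. PAX5, which plasma cells silence, was low in both lines, at 0.779 and 1.24 CPM.

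B cell receptor and B cell surface genes were more often higher than lower in MM.1S. SYK, the kinase next to the receptor, stood at 1.96, 1.05 and 1.09 CPM in U266 and 221, 219 and 209 CPM in MM.1S. BLNK, the adaptor that SYK phosphorylates, stood at 4.78, 3.89 and 4.6 CPM in U266 and 248, 235 and 246 CPM in MM.1S. Both were well separated by line, with differences of 7.32 ± 0.13 and 5.78 ± 0.07. BTK (2.73), the phosphatase PTPN6 (4.75), CR2 (7.0) and FCRLA (6.98) followed, and CD40, below the floor in U266, was at 7.89 CPM. The inhibitory Fc receptor FCGR2B had no count in U266 and stood at 4.92, 3.24 and 4.75 CPM in MM.1S. With U266 at the floor this is 84.9-fold higher. Going the other way were BLK (−4.90), PLCG2 (−1.95) and CD180, a toll-like receptor relative at 35.3, 32.4 and 32.3 CPM in U266 and 0.0423, 0.199 and 0.0176 CPM in MM.1S (−8.69, or −9.96 without library 2). In all, 15 of 31 genes of this group were 2-fold higher and 7 lower. For its 16 receptor complex and signalling genes the counts were 8 and 3. The lowest value among these was −8.31, of a gene not reported here by name.

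The light chain locus gave reads in both lines, but the lines differed along its length. IGLL5, whose exons lie in the lambda constant region, stood at 906, 866 and 861 CPM in U266 and 10814, 10782 and 11946 CPM in MM.1S. MIR650, a microRNA hairpin that lies among the lambda variable segments, stood at 3616, 3444 and 3483 CPM in U266 and 0.606, 11.8 and 0.756 CPM in MM.1S. The constant end was thus higher in MM.1S (3.67 ± 0.05) and the variable hairpin in U266 (−9.78, or −12.34 without library 2). A hairpin pair of the heavy chain region, MIR8071-1 and MIR8071-2, was at 0.0167 CPM in U266 and 7.63 CPM in MM.1S for either copy. The mature sequences are shown because they identify the segments that carried the reads and because the MIR8071 copies cannot be told apart. They are from RefSeq (GRCh38.p14, plus strand, 5′ to 3′), with the seed, bases 2 to 8, in capitals.
MIR650 (hsa-miR-650, chr22:22822791-22822811): aGGAGGCAgcgcucucaggac
MIR8071-1 (hsa-miR-8071, chr14:105621151-105621170): cGGUGGACuggagugggugg
MIR8071-2 (hsa-miR-8071, chr14:105640203-105640222): cGGUGGACuggagugggugg
The seeds of the 2 families differ, and the MIR8071 copies are identical. These counts are of RNA-sequencing reads over the hairpin and do not measure the mature microRNA. MIR8071-1 and MIR8071-2 were chosen after their values were seen.

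Several surface proteins that drugs or diagnostics address differed between the lines. CD38, the antigen of daratumumab, stood at 4.18, 4.53 and 4.28 CPM in U266 and 21.5, 19.9 and 21.8 CPM in MM.1S. GPRC5D, an orphan receptor addressed by bispecific antibodies, stood at 2.15, 2.26 and 2.12 CPM in U266 and 62.1, 62.0 and 65.1 CPM in MM.1S. Both were higher in MM.1S in every library, by 2.28 ± 0.07 and 4.86 ± 0.07. SLAMF7, the antigen of elotuzumab, was higher in MM.1S by 2.10 ± 0.03. FCRL5, another target of such agents, stood at 24.7, 19.6 and 18.9 CPM in U266 and 0.592, 0.993 and 1.23 CPM in MM.1S, so U266 was the higher line (−4.52 ± 0.20). TNFRSF17, which encodes BCMA, differed little, at 133 ± 4.34 and 109 ± 6.42 CPM (−0.29). The BAFF and APRIL receptor TNFRSF13B was higher in MM.1S (5.38).

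Phenotyping markers divided the lines too. PTPRC, the leukocyte antigen CD45, stood at 94.4, 94.1 and 94.9 CPM in U266 and 0.649, 0.675 and 0.915 CPM in MM.1S. CD81, a tetraspanin, stood at 31.2, 26.4 and 28.8 CPM in U266 and 0.480, 0.913 and 0.616 CPM in MM.1S. U266 was the positive line for both (−6.99 ± 0.08 and −5.47 ± 0.14). ICAM1 (−3.29), CD70 (−2.70) and PVRL2, the ligand nectin-2 (−5.39), were also higher in U266, while CD47 (1.71), CD44 (1.26) and LGALS9 (5.34) were higher in MM.1S. CD28, CD59 and CD48 differed by less than 2-fold. Over the group, 15 of 37 genes were 2-fold higher and 9 lower.

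In the IL6 axis, U266 had the higher levels of the ligand and of STAT3, and MM.1S of STAT6 and STAT5A. The signal-transducing receptor chain IL6ST and the ligand-binding IL6R were present in both lines, at 479 and 933 CPM and at 865 and 601 CPM. STAT6, the transducer of IL4, stood at 3.89, 3.05 and 2.85 CPM in U266 and 298, 268 and 281 CPM in MM.1S. The MM.1S libraries lay far above those of U266, with a difference of 6.44 ± 0.09 (edgeR adjusted p = 1.0e-14). STAT5A was also higher in MM.1S (2.83), and STAT3 was higher in U266 (−1.26). SOCS3, the feedback inhibitor that STAT3 induces, stood at 13.0, 10.5 and 12 CPM in U266 and 0.0987, 0.139 and 0.106 CPM in MM.1S, a clear separation (−6.69 ± 0.18). The receptor chains LIFR (5.6) and IL10RA (3.72) were higher in MM.1S and IL27RA in U266 (−1.48). Of 36 genes tested, 11 were 2-fold higher and 9 lower.

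Growth factor genes were split by line, and 8 of 12 ligands tested were 2-fold higher in MM.1S, 3 lower. IGF1, a myeloma growth factor, stood at 6.51, 5.92 and 5.50 CPM in U266 and 161, 159 and 154 CPM in MM.1S (4.73 ± 0.06), and its receptor IGF1R differed by 0.58. GAS6, the ligand of the TAM receptors, stood at 2.00, 2.37 and 3.03 CPM in U266 and 820.3, 803 and 774 CPM in MM.1S (8.33 ± 0.09), and TYRO3, one of these receptors, was higher too (3.50). NRG1 (6.54), PDGFB (9.03), PDGFC (5.58) and TGFA (4.74) added to the ligands of MM.1S. FGFR2 had no count in U266 and 14.4, 12.7 and 13.5 CPM in MM.1S, 267-fold higher with U266 at the floor. MET, the receptor of HGF, stood at 27.0 ± 0.533 CPM in U266 and 6.66 ± 0.438 CPM in MM.1S, and the insulin receptor INSR was likewise higher in U266 (−1.47). In this group 14 of 35 genes were 2-fold higher and 11 lower.

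The NF-kB genes, the pathway the drug of the series is aimed at, passed 2-fold in 9 of 30 cases, against 42.1% of all genes. Of 30 genes tested, 6 were 2-fold higher and 3 lower, with a median of 0.05. RELA and RELB differed by −0.14 and −0.41, and NFKB2 did not pass the test (563 and 528 CPM). REL, the lymphoid subunit, stood at 37.7, 38.2 and 39.0 CPM in U266 and 5.02, 5.88 and 5.56 CPM in MM.1S, and NFKB1 at 40.1, 38.9 and 37.1 CPM in U266 and 105, 108 and 107 CPM in MM.1S. REL was thus higher in U266 than in MM.1S (−2.81 ± 0.07), and NFKB1 was higher in MM.1S than in U266 (1.46 ± 0.05). The inhibitor NFKBIA (−1.10) and BIRC3 (−1.19) were higher in U266, and TNFAIP3 (1.16) and BIRC2 (1.33) in MM.1S. TNFRSF1A, the main TNF receptor, stood at 0.273, 0.330 and 0.160 CPM in U266 and 39.9, 41.1 and 43.0 CPM in MM.1S, the widest gap in the list (7.34 ± 0.12). TRAF3, a brake on the noncanonical arm, differed by −0.82.

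Survival genes of the BCL2 family were present in both lines. MCL1, on which most myelomas depend, stood at 1077 ± 19 CPM in U266 and 909 ± 10.2 CPM in MM.1S (−0.25). BCL2 was −0.69 and BCL2L1, encoding BCL-XL, 0.76 on the MM.1S minus U266 scale, both short of 2-fold. BCL2L2, encoding BCL-W, stood at 25.5, 25.8 and 27.1 CPM in U266 and 0.564, 0.556 and 0.317 CPM in MM.1S, the one large gap among the survival members tested at over 1 CPM. Of the BH3-only genes that trigger cell death, BBC3 (1.98) and BMF (1.76) were higher in MM.1S, and BIK (−4.18), HRK (−2.89, or −3.88 without library 2) and PMAIP1 (−1.36) in U266. The count was 3 higher and 5 lower by 2-fold, of 16.

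Single genes of cell cycle arrest and cell death are given as examples. MDM2, a ubiquitin ligase, stood at 274, 279 and 279 CPM in U266 and 1104, 1061 and 986 CPM in MM.1S, and SESN1 (2.40) and PHLDA3 (3.40) were higher in MM.1S too. TP63, a transcription factor of epithelia, went the other way, at 41.3, 41.0 and 40.2 CPM in U266 and 0.0846, 0.0397 and 0 CPM in MM.1S. Of 23 death receptor pathway genes, 9 were 2-fold higher and 4 lower. TNFRSF10B for TRAIL was higher in MM.1S (1.51), the decoy TNFRSF10D, below the floor in U266, was at 3.49 CPM, and the ligand TNFSF10 was 1.88. RIPK3, the kinase of necroptosis, was at 0.0799 CPM in U266 and 3.67 CPM in MM.1S, while its substrate MLKL was higher in U266 (−1.99).

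In the RAS pathway, most of the large differences were in outputs and brakes. DUSP4, a phosphatase that this pathway induces, stood at 4.73, 4.33 and 4.46 CPM in U266 and 243, 251 and 240.0 CPM in MM.1S (5.76 ± 0.05), and DUSP6 was higher as well (1.96). PHLDA1 (6.27) and RRAS2, a RAS relative (6.54), were under 1 CPM in U266. ETV4 and ETV5, also described as outputs of the pathway, were lower in MM.1S (−4.11 and −1.36), as was NRAS (−1.49). BRAF differed by less than 2-fold, and the group had 9 higher and 4 lower by 2-fold of 29.

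Interferon-stimulated genes were divided, with OAS, MX and several IFIT effectors higher in U266 and the guanylate-binding proteins of the list higher in MM.1S. Of 50 such genes tested, 22 were 2-fold lower in MM.1S and 8 higher, with a median of −0.50. OAS3, which senses double-stranded RNA, stood at 232, 223 and 238 CPM in U266 and 11.5, 11.8 and 11.3 CPM in MM.1S (−4.33 ± 0.05). MX2, a restriction factor, stood at 32.5, 31.5 and 31 CPM in U266 and 0.578, 0.616 and 0.563 CPM in MM.1S (−5.76 ± 0.09). These 2 genes separated the lines in every library, as did IFIT2 (−5.61), OASL (−5.43), IFIT3 (−4.14) and IFI27 (−4.08). GBP1, a guanylate-binding protein best known from the response to interferon gamma, stood at 0.236, 0.0659 and 0.144 CPM in U266 and 32.2, 33.7 and 33.4 CPM in MM.1S (7.80 ± 0.15). GBP2 (4.46), GBP4 (3.31), EPSTI1 (2.87), PARP12 (2.66) and the factor IRF1 (2.26) were also higher. Among all 5 GBP symbols tested, in the list or not, 4 were 2-fold higher and 1 was lower (−2.55). STAT2 differed by 0.41, and IRF9, its partner in the interferon response, was −2.34.

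Neighbours within the IFIT cluster went opposite ways. IFIT1 stood at 28.7, 31.8 and 32.7 CPM in U266 and 9.31, 8.18 and 9.41 CPM in MM.1S, IFIT3 at 99.9, 97.4 and 105 and 5.84, 5.08 and 6.19 CPM, and IFIT5 at 2.95, 2.42 and 2.5 and 10.6, 10.9 and 11.9 CPM. IFIT1 and IFIT3 were higher in U266 (−1.79 ± 0.07 and −4.14 ± 0.07) and IFIT5 in MM.1S (2.09 ± 0.10), with no overlap between the lines for any of them. IFIT1, IFIT5, IRF9 and STAT2 were chosen after their values were seen. The core of the interferon-stimulated response element, GAAA, then NN (any bases), then GAAA, was sought on both strands of the 250 bases before the start; overlapping matches were each counted, and no other motif was sought. These letters occurred in 3.07% of 27305 RefSeq promoters and in 22 of 39 interferon-stimulated gene promoters, namely in 9 of 15 of the lower genes, 4 of 7 of the higher genes and 9 of 17 of the rest. The promoters of the 3 IFIT genes and GBP1 are shown because they hold the same letters in front of genes that differed in opposite directions (RefSeq, GRCh38.p14, 5′ to 3′ on the gene's strand, matches in capitals).
IFIT1 (chr10:89392373-89392622, plus): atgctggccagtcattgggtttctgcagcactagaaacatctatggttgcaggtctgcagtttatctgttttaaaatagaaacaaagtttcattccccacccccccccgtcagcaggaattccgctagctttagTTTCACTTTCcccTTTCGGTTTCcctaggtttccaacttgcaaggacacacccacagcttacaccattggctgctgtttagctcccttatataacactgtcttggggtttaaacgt
IFIT3 (chr10:89327747-89327996, plus): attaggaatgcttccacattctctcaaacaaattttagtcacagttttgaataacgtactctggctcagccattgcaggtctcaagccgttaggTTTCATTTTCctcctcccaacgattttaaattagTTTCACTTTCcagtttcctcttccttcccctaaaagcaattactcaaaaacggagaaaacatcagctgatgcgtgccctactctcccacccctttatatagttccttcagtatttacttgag
IFIT5 (chr10:89414318-89414567, plus): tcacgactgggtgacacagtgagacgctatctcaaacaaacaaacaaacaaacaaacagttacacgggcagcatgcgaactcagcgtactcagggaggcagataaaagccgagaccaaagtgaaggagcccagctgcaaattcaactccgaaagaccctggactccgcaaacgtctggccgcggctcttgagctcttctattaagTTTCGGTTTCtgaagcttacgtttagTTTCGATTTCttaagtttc
GBP1 (chr1:89065209-89065458, minus): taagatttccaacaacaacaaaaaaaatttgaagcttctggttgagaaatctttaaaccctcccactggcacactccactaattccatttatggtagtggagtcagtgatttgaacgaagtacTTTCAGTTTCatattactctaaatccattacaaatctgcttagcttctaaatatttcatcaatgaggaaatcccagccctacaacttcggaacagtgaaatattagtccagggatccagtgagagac
The IFIT promoters each held 2 matches and that of GBP1 held 1. A match is a description of these letters and shows no binding.

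**Figure D3:**
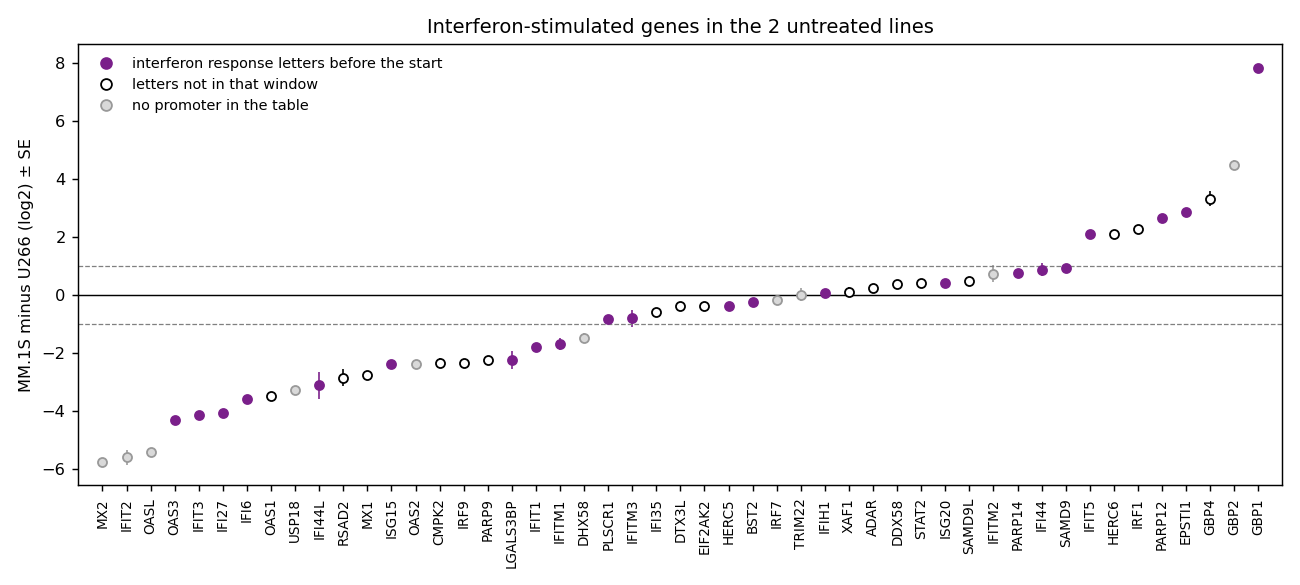
Log2 difference, MM.1S minus U266, with its SE for 49 of the 50 interferon-stimulated genes tested (1 is not drawn), in order, coloured by whether the 250 bases before the start hold the response element core or whether no promoter was matched. The range runs from MX2 at −5.76 to GBP1 at 7.80, and promoters with the letters occur at both ends.

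Sensors and adaptors of the innate system were more often higher than lower in MM.1S: 10 of 26 were 2-fold higher and 3 lower. TLR4 stood at 0.327, 0.247 and 0.289 CPM in U266 and 93.3, 94.7 and 98.2 CPM in MM.1S, and TLR6, which pairs with TLR2, was below the floor in U266 and at 19.8 ± 0.200 CPM in MM.1S. TLR7 (4.30) and NOD2 (2.59) were higher too, and IRAK3, a brake on these receptors, was lower (−5.48). APOBEC3 cytidine deaminases, which leave mutations in some myelomas, went the same way: APOBEC3G stood at 2.26, 1.75 and 1.76 CPM in U266 and 30.2, 30.5 and 32.9 CPM in MM.1S (4.03 ± 0.09). APOBEC3D, APOBEC3F, APOBEC3H and APOBEC3C followed with 3.05, 2.83, 2.01 and 1.21, whereas APOBEC3B, the member most often linked to such mutations, differed by less than 2-fold. These copies are alike in sequence and may share reads.

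Antigen presentation differed in its parts. B2M, the light chain of class I, stood at 1851, 1984 and 1802 CPM in U266 and 709.7, 765 and 852 CPM in MM.1S (−1.28 ± 0.06), and NLRC5, the class I activator, was lower as well (−1.90). Among the 11 peptide loading and control genes of class I tested, NLRC5 was the 1 that was 2-fold lower, and 5 were 2-fold higher. CIITA, the class II activator, was near level (39.2 and 51.2 CPM), and CD74, the invariant chain, was 0.50. HLA-DQB1 stood at 43.0, 40.3 and 40.2 CPM in U266 and 0, 0.278 and 0.0352 CPM in MM.1S, and HLA-DRB1 at 40.6 ± 1.26 and 4.86 ± 0.141 CPM. The class II chains were thus higher in U266 apart from HLA-DPA1, which did not pass, and HLA-DPB1 and HLA-DOB, which were higher in MM.1S. HLA symbols are placed several times in the reference and vary between people, so reads can be lost or shared, and these values are uncertain. Per group, 7 of 16 class I genes and 3 of 15 class II genes were 2-fold higher, and 3 and 6 lower.

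Homing genes were exchanged between the lines. CXCR4, the receptor that keeps plasma cells in marrow, stood at 309, 322 and 310.0 CPM in U266 and 65.4, 69.3 and 72.5 CPM in MM.1S (−2.18 ± 0.05), and CCR2 was lower too (−3.38). S1PR1, which guides egress, stood at 7.04, 6.94 and 7.47 CPM in U266 and 0.0564, 0.179 and 0.0879 CPM in MM.1S (−6.11 ± 0.22, or −6.62 without library 2). CXCR3 (5.77), XCR1 (5.62) and CX3CR1 were higher in MM.1S. CXCL10, a ligand of CXCR3, had no count in U266 and 8.91, 9.19 and 10.4 CPM in MM.1S. With U266 at the floor this is 188-fold higher. In total 9 of 21 chemokine genes were 2-fold higher and 9 lower.

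Of 36 adhesion genes tested, 11 were 2-fold higher and 8 lower, shares of 30.6% and 22.2%. ITGB7 and ITGB5 (3.45), the junction proteins ALCAM (5.73), ESAM (5.61) and the N-cadherin gene CDH2 (6.27) were higher in MM.1S. LGALS3, encoding galectin-3, stood at 151, 149 and 151 CPM in U266 and 8.07, 8.24 and 7.58 CPM in MM.1S, PECAM1, a junction protein of vessels and leukocytes, was −3.04, and ITGAX, an integrin chain of myeloid cells, was at 1.26 CPM in U266 with no count in MM.1S. ITGA4, the partner of ITGB7, differed by −0.37. Of 41 WNT and Notch genes tested, 20 were 2-fold higher in MM.1S (48.8%, against 20.3% of all genes) and 9 lower. NOTCH1 stood at 1.62, 1.12 and 1.39 CPM in U266 and 47.6, 42.5 and 42.9 CPM in MM.1S (5.01 ± 0.10), and the Notch target HES1 was 3.71. LRP6, a WNT coreceptor, stood at 0.0909, 0.0989 and 0.0641 CPM in U266 and 11.4, 11.8 and 10.7 CPM in MM.1S, and AXIN2, a WNT target, was 3.36. RNF43, which removes WNT receptors from the surface, was higher in U266 (−4.88).

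Cancer-testis genes, silent in most adult tissue outside the germ line, had the largest share of genes higher in U266 of the lists drawn in the plot of list shares. Of 65 listed, 36 passed the low-count filter and were tested. A gene silent in both lines does not pass it, and a member can enter through 1 line alone. A high share of 2-fold calls is therefore partly built in. Of the 36, 25 were 2-fold lower in MM.1S and 7 higher, with a median of −6.62 (−4.77 with genes at 0 set to the floor). MAGEB1 stood at 108, 107 and 103 CPM in U266 and 0, 0.298 and 0 CPM in MM.1S, and PAGE5 stood at 147, 148 and 145 CPM in U266 and 0.0282, 0.556 and 0.0352 CPM in MM.1S. In MM.1S only library 2, the one that stood apart, was above the floor, and MAGEB1 had no count in the other 2. With all libraries the differences were −10.26 and −9.65, and without library 2 that of PAGE5 was −12.10, while MAGEB1 had no count left to give one. Members of the MAGEA and PAGE families are alike in sequence and can share reads. The few germline genes higher in MM.1S were mainly autosomal: TEX15 and MORC1, below the floor in U266, were at 22.9 ± 1.94 and 15.8 ± 0.720 CPM in MM.1S, and SYCP3, of the meiotic axis, was 5.52.

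Imprinted genes, expressed from one parental copy, included several that were close to 0 in MM.1S. NDN stood at 35.0, 33.4 and 35.4 CPM in U266 and 0.0141, 0.0993 and 0 CPM in MM.1S, and PEG3 stood at 84.3, 93.2 and 84.3 CPM in U266 and 0, 0.397 and 0 CPM in MM.1S. MM.1S libraries 1 and 3 were below the floor for both, so no difference without library 2 is given, and those of −9.92 and −9.57 with it rest on that library. ZDBF2 (2.68) and MEST (2.67) were higher in MM.1S, while GNAS did not pass the test. Of 20 tested, 4 were 2-fold higher and 6 lower. Of 52 chromatin regulators, 10 were 2-fold higher and 2 lower. TET1, which oxidises methylcytosine, stood at 0.365 ± 0.104 CPM in U266 and 17.8 ± 1.51 CPM in MM.1S, CBX2 of the Polycomb complex was −3.91, and DNMT1, DNMT3B and EZH2 differed by less than 2-fold.

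Genes lost or mutated in myeloma, taken as a list, showed 12 of 35 higher in MM.1S by 2-fold and 9 lower. FAF1, the neighbour of CDKN2C, stood at 46.5, 46.6 and 46.5 CPM in U266 and 0.338, 0.496 and 0.369 CPM in MM.1S (−6.88, or −7.03 without library 2). The atypical cadherin FAT1 stood at 0.546, 0.610 and 0.449 CPM in U266 and 151, 146 and 139 CPM in MM.1S, and ROBO1, a guidance receptor, stood at 0.346, 0.346 and 0.240 CPM in U266 and 133, 127 and 127 CPM in MM.1S. FAF1, like CDKN2C, was thus under 1 CPM in MM.1S, and FAT1 and ROBO1 were under 1 CPM in U266. FAM46C (1.64) and SP140 (2.39) were higher in MM.1S.

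Amino acid genes were more often higher in U266, among them targets of ATF4, the factor of the integrated stress response. ATF4 stood at 618, 616 and 608 CPM in U266 and 274, 264 and 283 CPM in MM.1S (−1.17 ± 0.04). Of its 17 listed targets and partners tested, 12 were 2-fold lower in MM.1S and 0 higher, with a median of −1.48. CBS, which joins homocysteine to serine, stood at 88.1, 86.3 and 89.3 CPM in U266 and 4.70, 6.25 and 4.08 CPM in MM.1S, and STC2, a secreted glycoprotein, was −5.23. ASS1, which makes the precursor of arginine, stood at 52.0, 51.1 and 51.4 CPM in U266 and 0.338, 0.516 and 0.246 CPM in MM.1S, a gap of −7.15 ± 0.11. PHGDH, PSAT1 and PSPH, the enzymes of serine synthesis, were −2.42, −1.57 and −1.69, ALDH1L1 of the folate cycle was −7.92, and the cystine importer SLC7A11 was −2.64. Those higher in MM.1S included the glutamine importer SLC38A5, at 0.0728, 0.0659 and 0.0801 CPM in U266 and 177, 183 and 182 CPM in MM.1S, and the glutamine-making GLUL (2.16). Over the whole list 27 of 61 genes were 2-fold lower and 5 higher. PHGDH, PSAT1, PSPH and SLC7A11 were chosen after their values were seen.

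Redox and lysosomal genes were likewise more often higher in U266. GSTT1, a glutathione transferase that many people lack, stood at 54.2, 50.5 and 50.2 CPM in U266 and 0.127, 0.854 and 0 CPM in MM.1S (−7.45, or −9.47 without library 2). FTH1, the ferritin heavy chain, stood at 439 ± 2.51 CPM in U266 and 81 ± 3.94 CPM in MM.1S. Among lysosomal genes, CTSL (−4.16), CTSZ (−2.99) and GRN (−1.93) were higher in U266. MITF, a factor of lysosomal genes in some cells, was higher in MM.1S (3.53), while TFEB and TFE3 differed by 0.50 and −0.40. The counts of 2-fold lower genes were 12 of 40 for redox and 12 of 45 for lysosome and autophagy, and those of higher genes 4 and 5. NFE2L2, the factor NRF2, did not pass the test.

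Isoforms of glycolytic enzymes differed between the lines. PFKP, the platelet form of phosphofructokinase, stood at 169, 159 and 164 CPM in U266 and 0.903, 1.65 and 0.809 CPM in MM.1S (−7.23 ± 0.13), whereas the liver form PFKL was 0.82 and the muscle form PFKM −0.25. HK1 was higher in U266 (−1.87) and HK2 in MM.1S (1.97), and PKM, which makes pyruvate, stood at 8073 ± 188 CPM in U266 and 2034 ± 51.9 CPM in MM.1S. The glucose importer SLC2A3 was near the floor in U266 and at 6.61 CPM in MM.1S, and BNIP3, a hypoxia target, was −4.85. In this list 14 of 38 were higher and 7 lower by 2-fold. In lipid metabolism (12 higher and 5 lower of 47), the desaturases FADS2 and FADS1 were higher in U266 (−4.88 and −1.97). ACSL5, which activates fatty acids, stood at 0.80, 0.494 and 0.497 CPM in U266 and 110.3, 106 and 107 CPM in MM.1S, and SREBF1, which governs lipid synthesis, was 2.97. Of 39 respiratory chain genes, 4 were 2-fold higher and 1 lower, SDHA by the most (2.09).

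Genes of protein turnover and of the cell cycle had few 2-fold differences. Of 37 proteasome genes, 1 was 2-fold higher and 5 lower, and PSMB5, the subunit that bortezomib blocks, stood at 92.7, 93.5 and 94.3 CPM in U266 and 41.7, 46.2 and 45.2 CPM in MM.1S (−1.08 ± 0.05). Of 53 ribosomal protein genes, 1 was 2-fold higher and 12 lower (22.6%), close to the background of 21.8%. By the test alone 4 were higher and 47 lower, mostly by less than 2-fold, with a median of −0.54. Over all genes the test called 41.6% higher and 43.0% lower. Pseudogene copies can take the reads of ribosomal protein genes. Of 34 chaperone and folding genes of the endoplasmic reticulum, 7 were 2-fold higher, close to the background of 20.3%, and 1 lower, with DERL3 at 32.4 ± 1.91 and 247 ± 1.48 CPM and EDEM1 at 2.57, although the chaperone HSPA5 was −1.18. Mitosis genes gave 3 higher and 2 lower of 40, and replication genes 3 and 5 of 44. The exception was UBE2C, the ubiquitin carrier of mitotic exit, at 5.78, 5.22 and 4.84 CPM in U266 and 264, 281 and 297 CPM in MM.1S, a gap that its partner CDC20 did not share (47.0 and 44.2 CPM, not passing). Of 49 repair genes, 8 were higher and 3 lower by 2-fold: MGMT, which reverses alkyl damage, was at the floor in U266 and at 2.10 ± 0.125 CPM in MM.1S, and PARP1 and PARP2 were 1.70 and −1.87.

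Targets and handlers of myeloma drugs were in part shared. CRBN, the receptor of thalidomide analogues, did not pass the test, at 48.5 ± 1.23 CPM in U266 and 46.1 ± 0.0391 CPM in MM.1S, and nor did DDB1. NR3C1, the glucocorticoid receptor, stood at 277 ± 11.1 CPM in U266 and 775 ± 19.5 CPM in MM.1S (1.48 ± 0.04), and its target TSC22D3 was 2.62. Of the transporters, ABCC4 stood at 0.0728, 0.115 and 0.0160 CPM in U266 and 14.9, 14.7 and 13.6 CPM in MM.1S, while ABCB1, the classical efflux pump, was under 1 CPM in both. SLCO2B1, an importer of organic anions, was higher in U266 (−6.88, or −9.32 without library 2). In this group 11 of 35 were 2-fold higher and 6 lower.

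**Figure D4:**
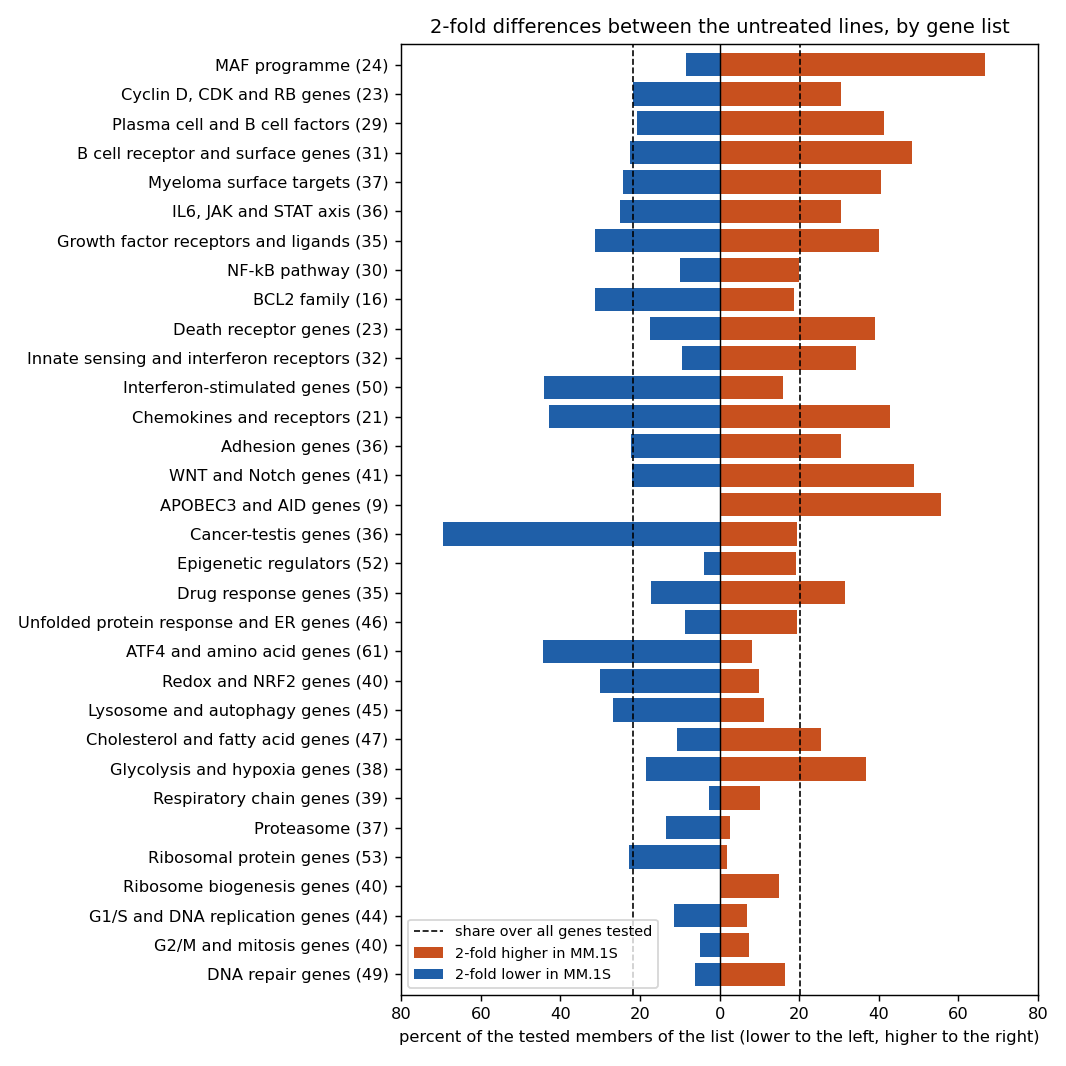
Percent of the tested members of 32 gene lists that were at least 2-fold higher (right) or lower (left) in MM.1S than in U266, with dashed lines at the shares over all genes tested (20.3% and 21.8%). The MAF list reaches furthest to the right and the cancer-testis list furthest to the left, and proteasome, mitosis and replication genes lie inside both lines.

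A smaller set of genes was on in one line and near 0 in the other. At 10 CPM or more in every library of one line and 1 CPM or less in every library of the other, 440 genes (2.72% of those tested) were restricted, 259 (1.6%) to MM.1S and 181 (1.12%) to U266. Without MM.1S library 2 the counts were 262 and 208. Sex-linked symbols of the Y chromosome and symbols placed more than once were left out. All 440 passed 2-fold in the same direction under IT848, a low bar for genes chosen at 10 CPM or more against 1 CPM or less. LAMP5, a lysosomal membrane protein of plasmacytoid dendritic cells and neurons, stood at 0, 0.0330 and 0.0962 CPM in U266 and 282, 273 and 284 CPM in MM.1S, the highest CPM in the MM.1S set, and its antisense neighbour LAMP5-AS1 had no count in U266 and 27.4 ± 0.983 CPM in MM.1S; without strand their reads cannot be told apart. SULF1, which trims heparan sulfate, CYSLTR1, a leukotriene receptor, and ST14, a membrane protease, reached 269, 189 and 182 CPM in MM.1S. In the U266 set PLXNA4, a semaphorin receptor, stood at 280.0, 274 and 298 CPM in U266 and 0.0846, 0.695 and 0.158 CPM in MM.1S. CPVL, a carboxypeptidase, and SLC30A8, a zinc transporter of islet cells, reached 201 and 168 CPM.

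Restricted genes followed each other in 24 runs of 2 or 3 among the tested genes, in the order of GRCh38.p14, 15 in MM.1S and 9 in U266. Genes not tested were skipped, so members of a run need not be direct neighbours. Overlapping or like symbols, such as CERS6 with CERS6-AS1, may hold the same reads. The number moved with the thresholds and the counting: 44 at 5 and 0.5 CPM, 4 at 50 and 1 CPM, and 38 with the most counted transcript. FAF1 and CDKN2C formed one in U266, and PTPRC and NR5A2 another. SLC26A1, IDUA and FGFRL1, which overlap or adjoin, formed the longest in U266: IDUA, a lysosomal iduronidase, stood at 22.9, 19.1 and 21.7 CPM in U266 and 0.0282, 0.199 and 0.0352 CPM in MM.1S (−8.04, or −9.31 without library 2). The cancer-testis pairs MAGEB2 with MAGEB1 and PAGE2B with PAGE2 were further U266 runs. NLGN4X, HDHD1 and STS on the X chromosome formed the longest in MM.1S: STS, the steroid sulfatase, stood at 0.0182, 0.0494 and 0 CPM in U266 and 15.6, 15.4 and 16.1 CPM in MM.1S, which is on in one line and at or near the floor in the other (9.32). ARID5B with RTKN2, CYSLTR1 with P2RY10 and TRAT1 with MORC1 were other runs of MM.1S.

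By chromosome, 19 and 14 stood out towards U266. On chromosome 19, 454 of 1152 tested genes (39.4%) were 2-fold lower in MM.1S, with a median of −0.59, and on chromosome 14, 209 of 504 (41.5%), with a median of −0.78. The zinc finger (ZNF) genes, repressors that recruit heterochromatin to repeats, differed by chromosome. On chromosome 19, 153 of 249 ZNF symbols were 2-fold lower and 9 higher (median −1.47). On the other chromosomes 43 of 250 were lower and 44 higher (median 0.03). Genes of chromosome 19 that are not ZNF symbols had 301 of 903 lower and 85 higher (median −0.45). Of 1037 windows of 30 tested genes in sequence, the lowest ran from ZNF836 to ZNF818P, with a median of −4.52. The next, elsewhere on chromosome 19, ran from LOC101927599 to ZNF573, with −4.01. Low windows were not limited to ZNF genes. That from C19orf48 to ZNF616 held 10 ZNF symbols among 30 genes, with a median of −3.47. That from ZNF473 to CLDND2 held 1, with a median of −2.02 and 19 genes 2-fold lower. Whether the pattern belongs to the regions or to the ZNF family was not tested. ZNF genes are alike in sequence, and these families were grouped after their values were seen.

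**Figure D5:**
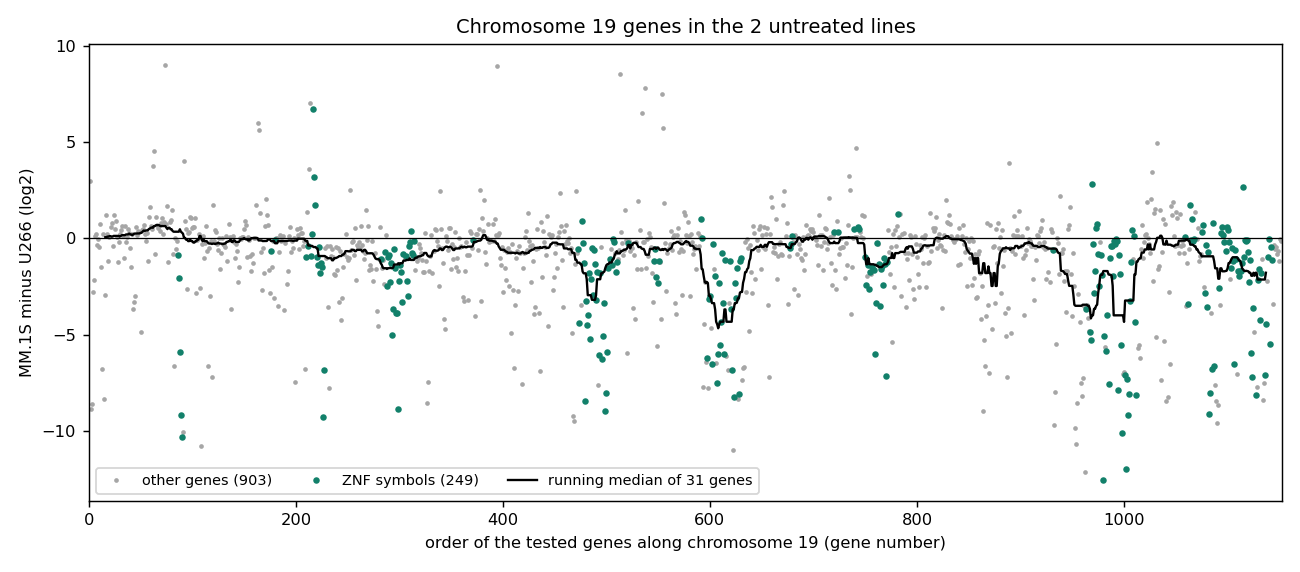
Log2 difference, MM.1S minus U266, of 1152 tested genes of chromosome 19 in gene order (not to scale in bases), with 249 ZNF symbols and 903 other genes in separate colours and a running median. The ZNF points fall below 0 in several blocks, and the deepest window of 30 genes has a median of −4.52. The other genes have a median of −0.45, and windows with few ZNF symbols are low too.

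At the other end, the window from PCDHAC1 to DIAPH1 had the highest median, 2.53. It holds the gamma protocadherins, cell recognition proteins, of which 20 of 22 were 2-fold higher in MM.1S and 0 lower. These symbols share constant exons, so their counts repeat the same reads and are not separate measurements. The clustered histone genes of chromosome 6 went the other way: 28 of 30 HIST1 symbols were 2-fold lower in MM.1S and 0 higher, with a median of −3.54. HIST1H1E, a linker histone mutated in myeloma, stood at 1.51, 1.5 and 1.88 CPM in U266 and 0.0846, 0.119 and 0.0879 CPM in MM.1S.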

How the data were processed

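RNA was measured in 12 libraries, of which the 6 with DMSO entered the comparison. The submitters' processing notes name hg19 and 4 tools: bcl2fastq, Trimmomatic (0.36), the aligner STAR (2.5.2b) and the counter featureCounts (Subread 1.5.2). The annotation and the handling of strand and multiply aligned reads were not given in the sources used here. Per the file headers, the authors deposited a count, an FPKM and a TPM for each of 51780 transcripts of 25680 symbols. Transcripts of one symbol hold the same reads where they overlap, so a sum per symbol repeats reads. The deposited FPKM of the most counted transcript served for levels between genes and for transcript length. The deposited TPM, which the authors scaled to 1000000 per library, was used only as a check.

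Counts were tested with edgeR 4.0.16 (R 4.3.3; quasi-likelihood F test, robust, TMM scaling, filterByExpr with a minimum count of 10, Benjamini-Hochberg over all genes tested, threshold 0.05, a mean per line). The test was also run on counts simulated from the means and sizes of these 6 libraries, and the outcome is not reported here. Differences are log2, MM.1S minus U266, with SE. DESeq2 1.42.0 and the other settings of the closing section were alternatives. Line-restricted genes, gene lists, promoter letters and windows of 30 genes (step 15) are descriptions with no test. Matching to GRCh38.p14 used the transcript for 25088 symbols, the current symbol for 250 and a former one for 201. It left 141 unmatched, and 782 are placed more than once (231 of those tested). No hg19 annotation was used here, so positions are given only for RefSeq sequences.

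The members and gene lists were chosen with earlier results of these data known. Named genes follow a rule. It takes the 15 largest differences in each direction among called genes at 20 CPM or more in the higher line. It adds up to 6 2-fold calls in each direction per list, all members of fixed role groups such as D cyclins, plasma cell factors, therapy targets, NF-kB, BCL2 and MHC genes, the genes of runs, and the 10 highest restricted genes of each line. Markers that check the labels stand outside it, as do other list members, such as IGF1, MDM2, IGLL5, BTK, PTPN6, STAT3, MXI1, CDC20 and CIITA, and those given as not passing or under 2-fold. These were chosen after their values were seen. For the folds of genes with no count in one line, 0 was set to 3 counts per library, a floor that covers counting error only. Since a sum per symbol repeats reads, 3 counts can be fewer than 3 reads, and those folds are not strict lower bounds. Some genes of the lists are counted there but not reported here by name.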

Additional observations from a re-analysis of the deposited data

How the results depend on the processing

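The counts of genes 2-fold higher and lower ranged from 2828 to 3732 and from 3037 to 4227 over RLE scaling, DESeq2, no low-count filter, the most counted transcript, all 12 libraries in the fit, the replicate block, the length trend taken out, glmTreat and each library left out, and stayed within 1.5 times the values reported. Leaving out 1 library at a time gave 3336 to 3408 and 3556 to 3711 2-fold calls, 6580 to 6756 and 6794 to 6977 calls, 183 to 208 genes restricted to U266, 24 to 29 runs and 82.7% to 86.2% of 2-fold calls shared with the IT848 libraries. That share was 79.2% with DESeq2 and 74.5% without the filter, settings that test 22354 genes. Both were set against the same filtered IT848 fit of 16188 genes, and genes not tested in that fit counted as not shared. At 50 CPM and 1 CPM, 49 genes were restricted to MM.1S and 31 to U266, in 4 runs. At 5 CPM and 0.5 CPM there were 44 runs, and with the most counted transcript 38. For the latter the cause was not tested. With the most counted transcript HLA-DPA1, not called at 0.16, was called at −1.02; the cause was not tested. Leaving out symbols placed more than once, and U266 library 1 with IT848, was chosen after seeing the data. Of 545 named genes tested, the direction and call of 529 or more were the same under each setting.

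Replicate numbers did not pair the lines: deviations of same-numbered libraries correlated at 0.108, −0.010 and −0.176. With the replicate block, 6598 genes were higher and 6810 lower, 3275 and 3521 of them 2-fold, and 2 named genes lost their call. Log2 difference and transcript length correlated at 0.0963 (Spearman, across 9125 genes, which are not independent), and a fit without that trend called 6909 genes higher and 6760 lower, against 6728 and 6959. Depth limits statements on genes under 3 counts, and library 2 of MM.1S those on genes near 0 there.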

Other observations

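Other gene groups follow. Of 12 HOX genes and cofactors tested, 5 were 2-fold higher in MM.1S and 3 lower, and few were abundant: HOXB7, a patterning factor, stood at 0.218, 0.264 and 0.176 CPM in U266 and 2.45, 2.78 and 2.62 CPM in MM.1S, and the cofactor MEIS1 at 2.92 ± 0.280 and 13.3 ± 0.983 CPM. PBX4 was at 1.51 CPM in U266 with no count in MM.1S, 29.2-fold lower with MM.1S at the floor. Of 17 factors of myeloma bone disease, 4 were 2-fold higher and 3 lower, together 41.2% against 42.1% of all genes. CCL3, which recruits osteoclasts, stood at 384, 359 and 369.9 CPM in U266 and 169, 179 and 202 CPM in MM.1S (−1.02 ± 0.06), and copies of CCL3 can share its reads. TGFB1 was higher in U266 (−1.38), DKK1, the WNT inhibitor of bone lesions, was at 2.20 and 1.14 CPM, and SFRP2 was at 1.49 CPM in U266 with no count in MM.1S. Of 24 long noncoding RNAs described in cancer, 6 were 2-fold higher and 2 lower. MIAT stood at 158 ± 20.4 CPM in U266 and 496 ± 60.1 CPM in MM.1S, NEAT1 at 216 ± 20.0 and 438 ± 112 CPM, and MALAT1 and GAS5 did not pass edgeR's test.

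Symbol families gave further counts, grouped after their values were seen. All 7 GIMAP symbols tested, small GTPases of lymphocytes, were 2-fold higher in MM.1S: GIMAP8 stood at 0.0364, 0.0494 and 0.0481 CPM in U266 and 17.2, 17.3 and 14.9 CPM in MM.1S. Of 26 semaphorin and plexin symbols, 13 were 2-fold higher and 5 lower, against 20.3% and 21.8% of all genes. Collagen symbols gave 6 higher and 9 lower of 33, and solute carriers 73 and 80 of 269. Of 190 LINC symbols, intergenic RNAs without a protein, 31 were 2-fold higher and 89 lower.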
